A study of Homo sapiens with 2 samples.

Results

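Oxidative phosphorylation subunits are the nuclear-encoded protein parts of the respiratory chain (complexes I to IV) and of the ATP synthase (complex V) in the inner mitochondrial membrane. They were chosen by gene symbol: NDUFA, NDUFB, NDUFC, NDUFS and NDUFV genes without assembly factors, SDHA to SDHD, UQCR genes and CYC1, COX4 to COX8 genes, and ATP5 genes, without pseudogenes. The RefSeq gene table held 89 such genes, and 82 of them were measured by at least 1 probe set that names a single gene, out of 18377 genes measured in all. The measured members were 34 of complex I, 3 of complex II, 8 of complex III, 19 of complex IV and 18 of complex V. COXFA4 and COXFA4L2 were included through their older names NDUFA4 and NDUFA4L2 and were placed in complex IV, where the COXFA4 protein is now known to sit.

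The study compared EBC1-R with EBC1, on 1 array each. EBC1 is an established human lung cancer line with an amplified MET gene, and EBC1-R is a subline selected by stepwise exposure to PHA-665752, an inhibitor of the MET kinase, and then kept in 3 µM of it. No inhibitor is stated for EBC1, so resistance and drug exposure cannot be told apart, and nothing in the sources used here says whether EBC1-R is a single clone. With 1 array a group there was no test and no replicate error, so every difference below is a size, log2 EBC1-R minus log2 EBC1, and is set beside the same measure over all genes.

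Complex I takes electrons from NADH and complex II from succinate. Both pass them to coenzyme Q, complex III passes them on to cytochrome c, and complex IV hands them to oxygen. The proton gradient built on the way drives ATP synthesis by complex V. Most subunits are encoded in the nucleus, while a small set of core subunits is encoded in mitochondrial DNA. The annotation named none of the 13 mitochondrially encoded subunits on a single-gene probe set, so the values below cover the nuclear part of the complexes.

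The arrays were first read for genes that bear on their labels. ABCB1, the drug efflux pump named in the study's title, was at 12.65 in EBC1-R and 5.37 in EBC1. The epithelial markers EPCAM, KRT8, KRT18 and CDH1 lay between 11.25 and 12.06 in EBC1-R and between 11.33 and 12.83 in EBC1. Of these, KRT8 and KRT18 were lower in EBC1-R, by differences of -0.83 and -0.78, and whether this bears on the subunits was not tested. The squamous markers KRT5, SOX2 and DSG3 were low, between 5.13 and 6.39 in EBC1-R and between 5.19 and 6.53 in EBC1. A squamous identity was thus not visible in these markers, but TP63, also on the squamous list, had no single-gene probe set. Of 11 markers of leukocytes, fibroblasts and endothelium, COL1A1 was the brightest, at 7.61 in EBC1-R and 7.64 in EBC1, and their differences lay between -0.15 and 0.09. In bulk RNA a smaller share of cells and less RNA per cell cannot be told apart.

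Transcripts of the 5 complexes were at nearly the same level in EBC1-R and EBC1. The median difference was 0.02 for complex I, -0.09 for complex II, 0.002 for complex III, -0.06 for complex IV and -0.07 for complex V. Over all 82 members it was -0.02, against -0.03 over all 18377 genes. The highest and the lowest complex median were 0.10 log2 units apart, and the ranges of the complexes overlapped. With 1 array a group, the error of these medians between cultures is unknown, so their order was not tested.

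Single subunits also differed little. A difference of at least 0.32 log2 units, a linear ratio of 5 to 4, was used as the first threshold. Of the 82 members, 5 were higher in EBC1-R by at least this much (6.10%), against 11.8% of all genes, and 3 were lower (3.66%), against 10.4% of all genes. At 1.5-fold 1 member was higher and none lower, against 4.41% and 3.16% of all genes. No member passed 2-fold, which 1.26% of all genes passed upward and 0.887% downward. By any amount 36 members were higher (43.9%) and 46 lower, against 43.3% and 55.5% of all genes.

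Brighter genes differed more often, so the members were also read beside the 9189 genes with a mean level at or above the median gene (7.28), which 73 of the 82 members reached. Of these genes 16.7% were higher and 15.1% lower by at least 0.32 log2 units. At 1.5-fold it was 6.25% and 5.23%, and at 2-fold 1.77% and 1.51%. By any amount 49.1% were higher and 50.6% lower. Differences of at most 0.2 log2 units made up 75.6% of the 82 members, against 59.7% of all 18377 genes, and 76.7% of the 73 brighter members, against 48.3% of the 9189 brighter genes.

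**Figure D1:**
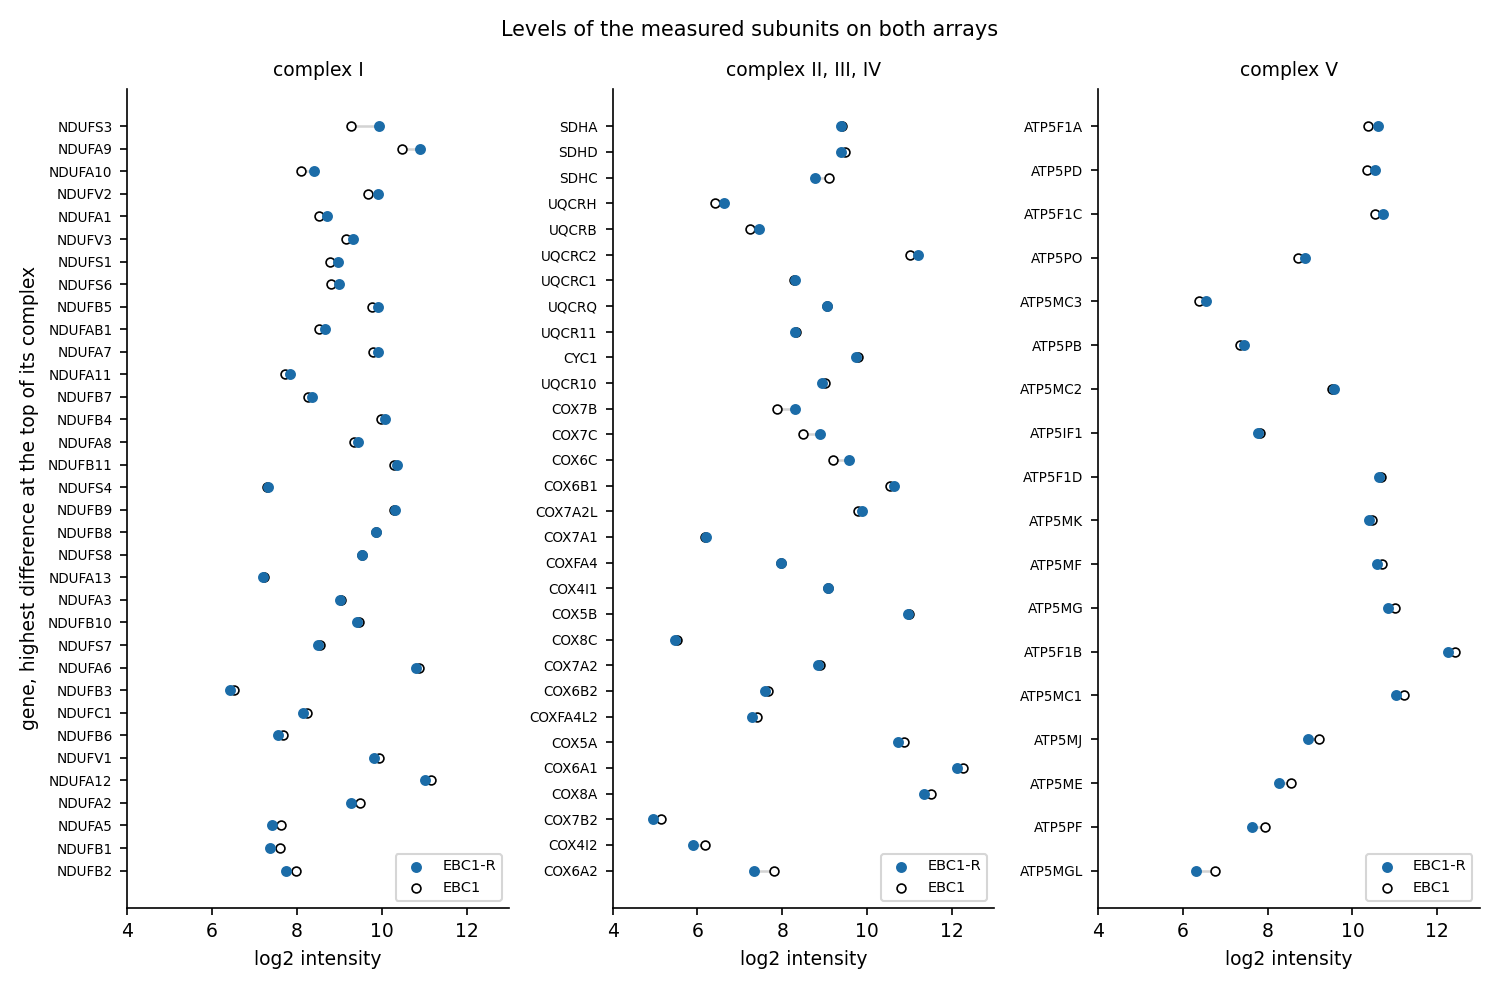
Log2 intensity of each of the 82 measured subunits (rows) in EBC1-R (filled blue) and EBC1 (open), 1 array each, with no error bars because there are no replicates. Within each complex, genes run from the highest to the lowest difference. The pairs of points overlap or nearly touch for most genes, and NDUFS3, at 9.94 in EBC1-R and 9.28 in EBC1, is the widest pair.

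In complex I, 18 of 34 members were higher and 16 lower, and the largest difference belonged to a core subunit. NDUFS3, which lies in the arm that leads electrons to the coenzyme Q site, was at 9.94 in EBC1-R and 9.28 in EBC1, a difference of 0.66 or 1.58-fold. The other measured core subunits did not share this. NDUFV2, an iron-sulfur subunit of the NADH-oxidising tip, was at 9.91 in EBC1-R and 9.67 in EBC1, and both of its probe sets gave a difference of 0.24. NDUFS1, which carries iron-sulfur clusters in the same tip, differed by 0.17. NDUFV1, which holds the flavin and binds NADH, differed by -0.12. NDUFS7 and NDUFS8, whose clusters sit next to the coenzyme Q site, differed by -0.05 and -0.007. The 6 measured core subunits thus ranged from -0.12 to 0.66 with a median of 0.08.

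The 28 supernumerary subunits, which surround the core of complex I and serve its stability and assembly, had a median of 0.02. NDUFA9, which lies near the coenzyme Q site, was at 10.91 in EBC1-R and 10.47 in EBC1, or 1.35-fold higher. NDUFA10 followed at 8.39 in EBC1-R and 8.09 in EBC1, a difference of 0.30 that falls just short of the threshold. NDUFA1 (0.20) and NDUFV3 (0.18) came next, and NDUFAB1, the mitochondrial acyl carrier protein, differed by 0.14. At the other end NDUFB2 was at 7.75 in EBC1-R and 7.98 in EBC1, a difference of -0.23. NDUFB1 (-0.22), NDUFA5 (-0.21) and NDUFA2 (-0.20) were close to it, and no complex I subunit was lower by 0.32 log2 units. The 12 alpha-named subunits, NDUFAB1 left out, had a median of 0.03 and a range from -0.21 to 0.44, and the 11 beta-named subunits a median of -0.006 and a range from -0.23 to 0.14.

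All 3 measured members of complex II, which is also the succinate dehydrogenase of the citric acid cycle, were lower in EBC1-R, by unequal amounts. By any amount 55.5% of all genes were lower, and the sign of SDHA turned (0.01) when each array was centred on its median. SDHA, the flavin-carrying catalytic subunit, was at 9.39 in EBC1-R and 9.40 in EBC1. SDHC, a membrane anchor, was at 8.78 in EBC1-R and 9.11 in EBC1, which is 1.26-fold lower and the lowest value among widely expressed subunits. Its probe sets gave -0.36 and -0.30, and under 4 alternative settings its difference, between -0.31 and -0.30, fell short of the threshold. SDHD, the other anchor, differed by -0.09 on average, but its probe sets disagreed in direction. The brighter one was at 9.96 in EBC1-R and 10.21 in EBC1, and the dimmer one at 8.83 in EBC1-R and 8.76 in EBC1. SDHB, the iron-sulfur subunit, was not analysed here, so the catalytic part of the complex rests on SDHA.

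Complex III had the narrowest range, from -0.06 to 0.21, with 4 of 8 members higher. UQCRC2, a core protein, was at 11.20 in EBC1-R and 11.02 in EBC1, while its partner UQCRC1 was at 8.30 in EBC1-R and 8.28 in EBC1. CYC1, the cytochrome that passes electrons to cytochrome c, was at 9.73 in EBC1-R and 9.78 in EBC1. Among the small subunits, UQCRH, the hinge protein, differed by 0.21 from a low level of 6.63 in EBC1-R and 6.42 in EBC1, and UQCRB by 0.20. UQCRQ, UQCR11 and UQCR10 lay between -0.06 and -0.01. The Rieske iron-sulfur protein UQCRFS1 was not analysed here.

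Complex IV held 3 of the 5 members higher by at least 0.32 log2 units, all of them small subunits that cross the membrane. They are 15.8% of its 19 members, against 11.8% of all genes and 16.7% of the brighter genes. COX7B was at 8.31 in EBC1-R and 7.87 in EBC1 (1.35-fold), COX7C at 8.88 in EBC1-R and 8.49 in EBC1 (1.31-fold), and COX6C at 9.58 in EBC1-R and 9.19 in EBC1 (1.31-fold). The next member, COX6B1, differed by 0.11. The remaining widely expressed subunits lay close to 0 or below it. COX4I1, a regulatory subunit, was at 9.08 on both arrays, and COX5B, a zinc-binding subunit on the matrix side, was at 10.97 in EBC1-R and 10.99 in EBC1. COX5A (-0.14), COX6A1 (-0.15) and COX8A (-0.18) were the lowest of the 12 widely expressed members, whose median was 0.0004. COX7A2L, which helps join complexes III and IV, differed by 0.07.

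The paralogues of complex IV that replace a common subunit in muscle, testis, lung or low oxygen were not higher as a group. Of 7 such genes 6 were lower in EBC1-R, while 55.5% of all genes were lower by any amount. The median of the 7 was -0.12, and 4 of the 7 were dimmer than the median gene. COX6A2, the heart and muscle form of COX6A1, was at 7.34 in EBC1-R and 7.80 in EBC1, or 1.38-fold lower. COX4I2, a lung form of COX4I1 known to respond to low oxygen, was at 5.90 in EBC1-R and 6.18 in EBC1. COXFA4L2, a hypoxia-induced paralogue of COXFA4, was at 7.29 in EBC1-R and 7.41 in EBC1, and COXFA4 itself was at 7.97 in EBC1-R and 7.96 in EBC1. COX7B2 differed by -0.20 while COX7B differed by 0.43. COX6B2, COX7A1 and COX8C differed by -0.08, 0.006 and -0.06. Without detection calls it is unknown whether the dim genes were above background. COXFA4L3, a further COXFA4 paralogue that is no member by its symbol, was picked for its value and was at 8.45 in EBC1-R and 6.74 in EBC1, or 3.27-fold higher. Its product is known to be induced by inflammatory signals and to take the place of COXFA4 in complex IV.

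**Figure D2:**
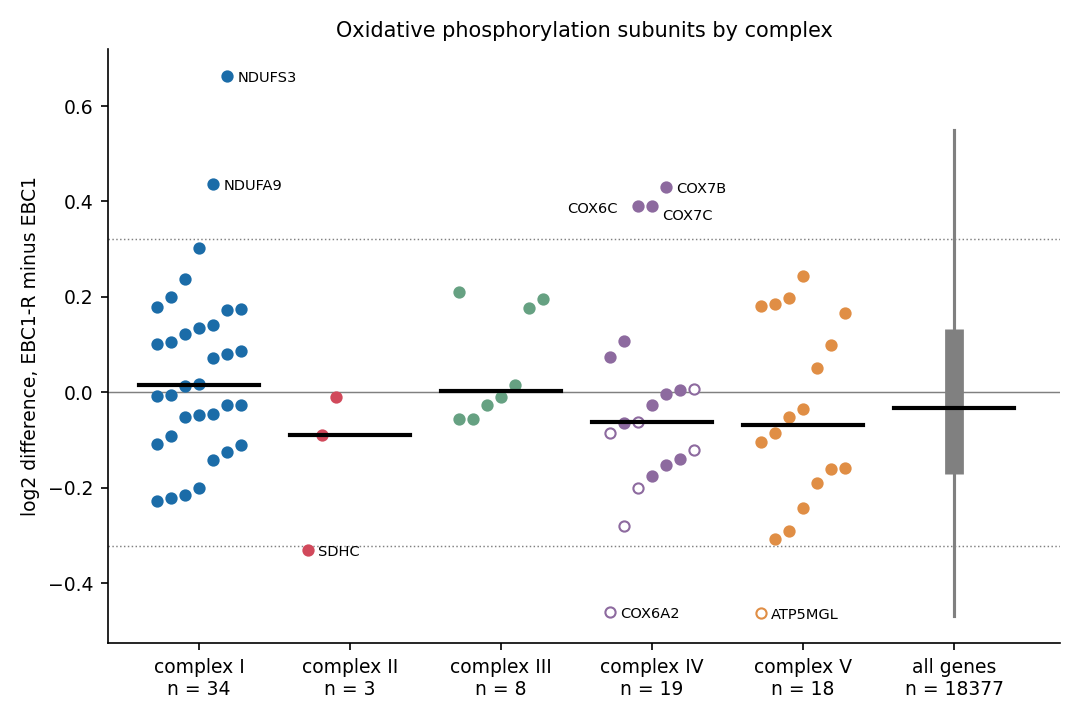
Log2 difference (EBC1-R minus EBC1) of each measured subunit by complex, with black lines at the medians. Open circles are paralogues of restricted expression, dotted lines mark 0.32 log2 units either way, and the grey bar shows all 18377 genes (thick, middle 50%; thin, 5th to 95th percentile). The 8 named genes lie beyond the dotted lines, and the complexes overlap over most of their ranges.

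In complex V, 7 of 18 members were higher (38.9%) and 11 lower, against 43.3% and 55.5% of all genes by any amount. Signs were mixed within the F1 head, the stalk and the c ring. In the F1 head, which makes ATP, ATP5F1A (alpha) was at 10.60 in EBC1-R and 10.36 in EBC1. Its partner ATP5F1B, the catalytic beta subunit, had the opposite sign, at 12.25 in EBC1-R and 12.41 in EBC1. ATP5F1C, the central shaft, differed by 0.19 and ATP5F1D by -0.05. In the stalk that holds the head still, ATP5PD (0.20), ATP5PO (0.18) and ATP5PB (0.10) were higher. ATP5PF, of the same stalk, was at 7.64 in EBC1-R and 7.95 in EBC1, a difference of -0.31.

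The other membrane subunits of complex V were all lower, by small amounts. ATP5ME and ATP5MG, which help shape the enzyme into dimers, differed by -0.29 and -0.16. ATP5MJ differed by -0.24, ATP5MF by -0.10 and ATP5MK by -0.08. The median of these 5 was -0.16, and 55.5% of all genes were lower by any amount. ATP5MC1, ATP5MC2 and ATP5MC3 encode the same mature subunit of the rotating c ring, and their signs differed. They differed by -0.19, 0.05 and 0.17, the last from 6.55 in EBC1-R and 6.39 in EBC1. ATP5IF1, the inhibitor of ATP hydrolysis, was at 7.78 in EBC1-R and 7.81 in EBC1. ATP5MGL, a close relative of ATP5MG, was at 6.31 in EBC1-R and 6.77 in EBC1 (1.38-fold lower), below the median gene on both arrays. Whether transcripts of ATP5MG hybridise to its probes was not tested.

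Of the 7 members outside the count, 4 were named only on probe sets that list several genes. The probe set that lists NDUFS5 with other genes differed by -0.18, that of NDUFC2 by -0.19 and that of ATP5F1E by 0.03. The probe set shared by UQCRH, its paralogue UQCRHL and GNA13 was at 9.31 in EBC1-R and 8.93 in EBC1, a difference of 0.38, which cannot be assigned to 1 gene. Both SDHA probe sets that also list SDHA pseudogenes differed by -0.03 and -0.04, close to the -0.01 of the single-gene probe set. Many subunit genes have processed pseudogenes, and cross-hybridisation was not tested.

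Subunit genes are known to share binding sites for the factors NRF1, GABP (an ETS factor) and YY1 near their start sites, so their promoters were read beside these values. RefSeq promoter windows of 300 bases (GRCh38.p14, 250 before the start site and 50 after) were found for 72 of the 89 genes, 3 of which were not measured on single-gene probe sets. The windows of 3 members are shown from 250 bases before the start to 30 after, 5′ to 3′, with motif matches in capitals. NDUFS3 (chr11:47578824-47579103, plus strand) and NDUFA9 (chr12:4648864-4649143, plus strand) had the highest differences. ATP5PF (chr21:25735025-25735304, minus strand) was the lowest widely expressed member of complex V and the 1 shown that holds the NRF1, ETS and YY1 motifs together.
NDUFS3: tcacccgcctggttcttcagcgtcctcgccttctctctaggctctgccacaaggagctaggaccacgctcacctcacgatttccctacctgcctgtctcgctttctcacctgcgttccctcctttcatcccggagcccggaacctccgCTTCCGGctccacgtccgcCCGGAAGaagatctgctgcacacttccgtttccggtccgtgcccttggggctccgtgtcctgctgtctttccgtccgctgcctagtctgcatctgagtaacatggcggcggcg
NDUFA9: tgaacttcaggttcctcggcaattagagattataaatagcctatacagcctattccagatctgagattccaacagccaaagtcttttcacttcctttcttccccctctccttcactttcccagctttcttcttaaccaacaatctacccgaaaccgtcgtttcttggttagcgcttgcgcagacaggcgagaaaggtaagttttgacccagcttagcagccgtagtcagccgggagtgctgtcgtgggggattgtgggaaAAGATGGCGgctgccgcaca
ATP5PF: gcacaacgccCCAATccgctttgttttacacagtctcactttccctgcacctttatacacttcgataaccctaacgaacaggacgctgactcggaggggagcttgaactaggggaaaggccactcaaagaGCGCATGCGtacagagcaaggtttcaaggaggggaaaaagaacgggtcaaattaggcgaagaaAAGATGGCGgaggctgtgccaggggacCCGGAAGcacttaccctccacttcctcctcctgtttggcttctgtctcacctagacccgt

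The NDUFS3 window holds the ETS motif CCGGAAG on both strands, starting 102 and 83 bases before the start. The NDUFA9 window holds the YY1 motif AAGATGGCG 11 bases after the start. In ATP5PF the NRF1 motif GCGCATGCG lies 120 bases before the start, YY1 57 and ETS 30 bases before it, and a CCAAT box 240 bases before it. Members held the first 3 of these motifs in a larger share of windows than protein-coding genes did. GCGCATGCG was in 13.9% of member windows, against 2.76% of 15842 protein-coding windows, CCGGAAG in 27.8% against 14.23%, and AAGATGGCG in 11.1% against 2.74%. CCAAT was in 34.7% against 36.4%. All were searched on both strands, and a match of letters does not show binding.

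Medians with and without each of these motifs were close. The median difference was 0.002 for the 10 measured members with the NRF1 motif and -0.01 for the 59 without it. It was -0.03 for 19 members with the ETS motif and -0.009 for 50 without it, and 0.02 for 7 with the YY1 motif and -0.02 for 62 without it. For CCAAT it was -0.07 for 24 members with it and -0.004 for 45 without it. NDUFS3 (0.66) and ATP5PF (-0.31) both carry the ETS motif, and COX6A2 (-0.46) holds CCAAT alone of the motifs searched.

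A further motif was picked after the values were seen, because COX7B and COX7C share it. CTACANTTC is part of an element known to be bound by the zinc finger factor ZNF143, and it was found in 3 of 72 member windows (4.17%), against 1.70% of protein-coding windows. The 3 are COX7B (chrX:77899218-77899497, plus strand), COX7C (chr5:86617691-86617970, plus strand), which holds it at 2 places, and ATP5PO (chr21:33915775-33916054, minus strand), shown over the same span.
COX7B: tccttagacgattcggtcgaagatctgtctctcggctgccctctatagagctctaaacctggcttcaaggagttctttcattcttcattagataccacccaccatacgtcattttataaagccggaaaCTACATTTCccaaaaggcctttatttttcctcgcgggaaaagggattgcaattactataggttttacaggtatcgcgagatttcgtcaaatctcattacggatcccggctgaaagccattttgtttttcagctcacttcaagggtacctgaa
COX7C: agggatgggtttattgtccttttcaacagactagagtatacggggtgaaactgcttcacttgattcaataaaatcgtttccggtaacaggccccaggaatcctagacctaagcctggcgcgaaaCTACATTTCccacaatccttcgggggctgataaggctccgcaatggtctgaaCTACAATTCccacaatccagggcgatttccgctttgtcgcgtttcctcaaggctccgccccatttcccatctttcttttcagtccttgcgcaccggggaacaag
ATP5PO: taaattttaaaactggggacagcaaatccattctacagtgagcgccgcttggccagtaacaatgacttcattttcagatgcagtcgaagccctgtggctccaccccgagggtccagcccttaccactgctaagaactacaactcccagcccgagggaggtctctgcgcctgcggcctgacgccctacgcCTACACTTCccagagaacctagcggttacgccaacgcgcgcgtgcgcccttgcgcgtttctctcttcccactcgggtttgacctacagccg

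COX7B holds it 122 bases before the start, COX7C 126 and 74 bases before it, and ATP5PO 61 bases before it. Their differences were 0.43, 0.39 and 0.18, all higher in EBC1-R. Since the motif was chosen from these genes, their values are no support for it. Over all 250 measured genes with the motif the median difference was 0.05 and 57.2% were higher, while over 13960 genes without it the median was -0.03 and 44.0% were higher. The 250 genes include COX7B, COX7C and ATP5PO themselves. Over all measured genes the YY1 motif gave a shift of similar size. Its median was 0.06 with 57.4% higher over 408 genes with it, against -0.03 and 43.8% over 13802 genes without it. Among genes with a mean level at or above the median gene the shifts were less alike. For the ZNF143 motif the median was 0.09 and 60.5% were higher over 167 genes with it, against -0.003 and 49.5% over 7386 without it. For the YY1 motif it was 0.06 and 58.0% over 348 genes with it, against -0.004 and 49.3% over 7205 without it.

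**Figure D3:**
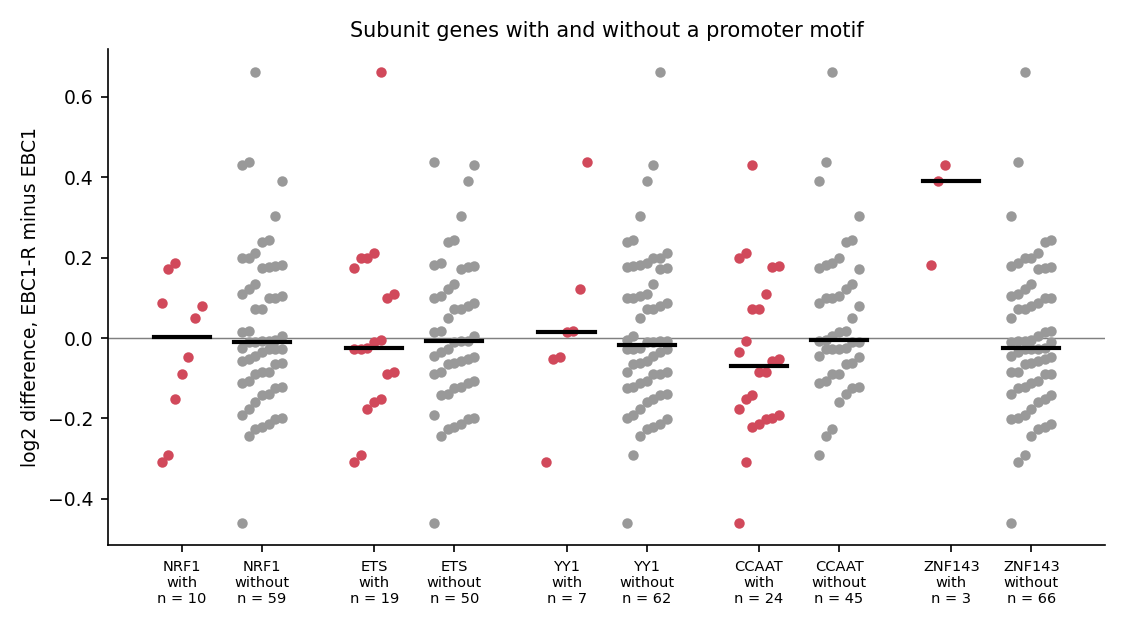
Log2 difference (EBC1-R minus EBC1) of the measured subunits with a promoter window, split by whether the window holds each motif (red, with; grey, without), with black lines at the medians. The medians with and without the NRF1, ETS, YY1 and CCAAT motifs lie between -0.07 and 0.02, and the 3 genes with the ZNF143 motif, which was picked after their values were seen, lie at 0.18, 0.39 and 0.43.

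Other genes of the pathway were read from fixed lists. The transcripts of factors that drive mitochondrial gene expression differed little. Of 15 regulators 4 were higher (26.7%) and 11 lower, against 43.3% and 55.5% of all genes by any amount. None differed by 0.32 log2 units, which 11.8% of all genes passed upward and 10.4% downward, and the median was -0.04. TFAM, which packages and transcribes mitochondrial DNA, differed by -0.25, and TWNK, the mitochondrial helicase, differed by -0.24. NRF1 differed by -0.04, GABPA by 0.16, YY1 by -0.11 and the coactivator PPARGC1A by -0.17. Of 73 mitochondrial ribosomal proteins, which translate the mitochondrially encoded subunits, 43 were higher (58.9%), with a median of 0.04. By any amount 43.3% of all genes and 49.1% of the brighter genes were higher. By at least 0.32 log2 units 5 of the 73 were higher and 5 lower. Each of these 2 counts is 6.85% of the list, below the 11.8% and 10.4% of all genes. The widest were MRPS21, at 9.50 in EBC1-R and 10.31 in EBC1 (1.76-fold lower), and MRPS27, at 10.09 in EBC1-R and 9.39 in EBC1 (1.62-fold higher). MRPS9 differed by 0.61.

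Coenzyme Q synthesis held a larger share of genes higher past the threshold than the subunits did, as did most of the other lists. Among those were the assembly factors of complex II (66.7% of 3 genes) and complex V (20% of 5). Of the 12 genes of the list that holds cytochrome c and coenzyme Q synthesis, 5 were higher by at least 0.32 log2 units (41.7%) and none as much lower. These shares were 11.8% and 10.4% of all genes, and 16.7% and 15.1% of the brighter genes. PDSS2, of the enzyme that builds the isoprenoid tail, was at 6.82 in EBC1-R and 6.10 in EBC1 (1.65-fold), below the median gene, as was COQ3. COQ8A (0.49), COQ7 (0.49), COQ3 (0.45) and COQ5 (0.37), which modify the ring or assist its modification, were the other 4. Cytochrome c itself, CYCS, differed by -0.11, and COQ8B by -0.26. The median of the list was 0.09. Among 8 other enzymes that feed coenzyme Q, SQOR, which oxidises sulfide, was at 9.10 in EBC1-R and 9.59 in EBC1 (1.40-fold lower). CHDH was 1.26-fold lower from levels near 7, and GPD2, at 1.24-fold higher, fell just short of the threshold.

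Assembly factors differed in both directions. Of 18 factors of complex I, 12 were higher (66.7%), against 43.3% of all genes and 49.1% of the brighter genes by any amount. Past the threshold were 2 (11.1%, against 11.8% of all genes), NUBPL (0.39), which delivers iron-sulfur clusters, and TMEM126A (0.35). TMEM186 differed by 0.31. The mean levels of TMEM126A and TMEM186 were below the median gene. For complex II, SDHAF4 was at 6.34 in EBC1-R and 5.60 in EBC1 (1.67-fold) and SDHAF3 at 7.21 in EBC1-R and 6.87 in EBC1, both below the median gene, while SDHAF2 differed by -0.05. For complex III, TTC19 was at 9.76 in EBC1-R and 10.41 in EBC1 (1.56-fold lower). LYRM7, with a mean level below the median gene, differed by 0.35 and UQCC2 by 0.28. For complex IV, 3 of 22 factors (13.6%) were higher by at least 0.32 log2 units, among them COX15 (0.47), of heme A synthesis, and COA4 (0.41). HIGD1A, known to be induced by low oxygen, was at 8.25 in EBC1-R and 8.66 in EBC1 (1.33-fold lower). For complex V, DMAC2L differed by 0.45 and ATPAF2 by 0.30. TMEM70, at 1.248-fold lower, fell just short of the threshold.

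The citric acid cycle, which supplies NADH and succinate, had a median of -0.05 over 12 enzymes. The 2 past the threshold, both higher, are 16.7% of the list, against 11.8% of all genes and 16.7% of the brighter genes. Both were subunits of the same enzyme, succinyl-CoA ligase. SUCLG2 was at 8.61 in EBC1-R and 8.08 in EBC1 (1.43-fold higher), and SUCLG1 was at 8.66 in EBC1-R and 8.26 in EBC1 (1.32-fold higher). SUCLA2, the alternative partner of SUCLG1, differed by -0.03, and IDH3A, of isocitrate dehydrogenase, by -0.30.

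**Figure D4:**
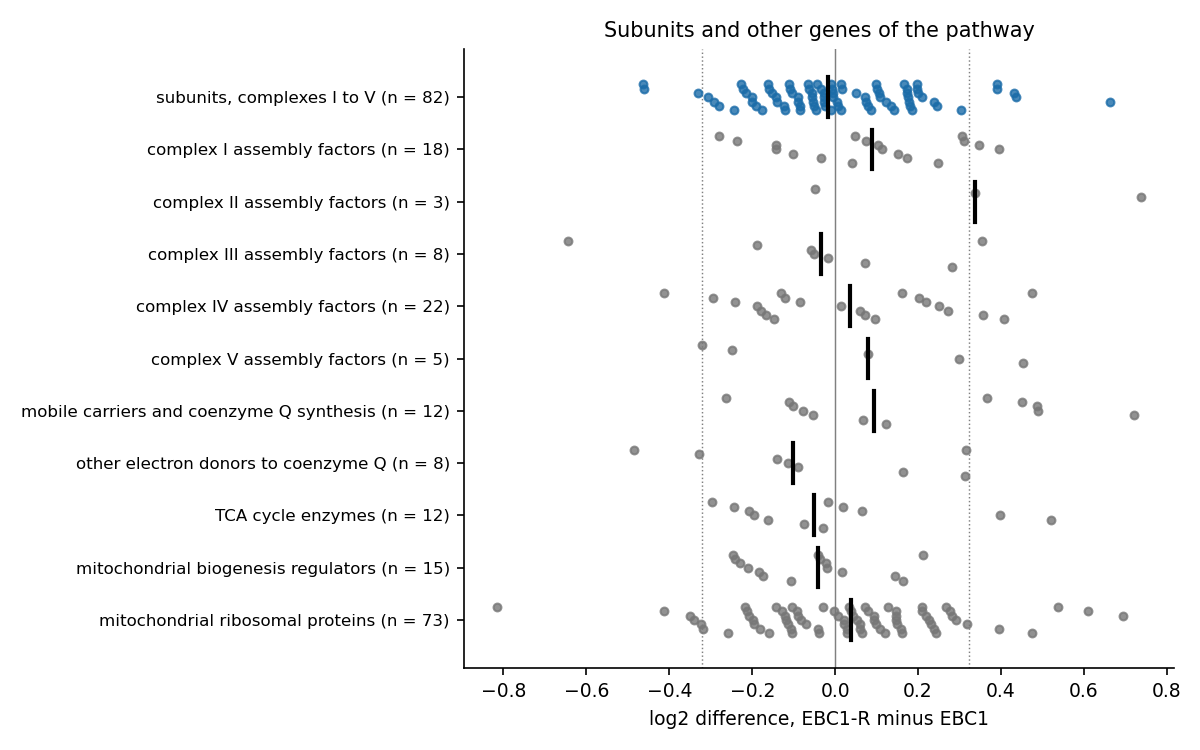
Log2 difference (EBC1-R minus EBC1) of each gene of the subunits and of 10 other lists of the pathway (rows), with black bars at the list medians and dotted lines at 0.32 log2 units either way. The medians of all lists but that of complex II assembly factors (0.34, 3 genes) lie between -0.10 and 0.09.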

How the data were processed

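RNA of EBC1-R and EBC1 was hybridised to 1 one-colour Affymetrix array each. The authors deposited 1 value per probe set, taken here as log2 intensity from its range (4.22 to 14.2 in EBC1-R and 4.21 to 14.1 in EBC1). The sources used here name no background correction, normalization method or software. The column medians were 6.71 and 6.73, so a change shared by most genes would not be visible. Of 28869 probe sets, 19310 had 1 gene symbol, 1752 several and 7807 none. Probe sets with 1 symbol were averaged per gene, which gave 18377 genes, and 18352 symbols were found in the RefSeq table (GRCh38.p14). The labels name an older array type than the one the probe set identifiers match. No test was possible with 1 array a group. Thresholds were 0.32 log2 units (a ratio of 5 to 4), 1.5-fold and 2-fold. The number of arrays limits the precision, and no detection call was used.

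Members and lists were chosen with earlier results of these data known. Named genes were members past the first threshold, the 3 highest and 3 lowest of each complex, core and catalytic subunits, paralogue pairs and the 3 widest of each list. Other genes were named after their values were seen. Promoter windows came from RefSeq, and the first window of each gene was searched. The averaging, counting and lowess steps were tested on simulated data. Python 3.11.15, pandas 2.3.3 and statsmodels 0.14.6 were used.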

Additional observations from a re-analysis of the deposited data

How the results depend on the processing

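The alternatives were quantile normalization, centring each array on its median, removal of a lowess trend (span 0.2), a pseudocount of 16, the brightest probe set of a gene, 2 level filters, use of probe sets naming several genes, other memberships, the mean in place of the median, and thresholds of 1.5-fold and 2-fold. Leaving out COXFA4 and COXFA4L2 was added after the data were seen. Over these settings the median of complex I ranged from 0.004 to 0.07, of complex III from -0.01 to 0.06, of complex IV from -0.06 to 0.0004, of complex V from -0.08 to -0.05 and of all members from -0.03 to 0.003. The median of complex II ranged from -0.25 to -0.07, and -0.25 came with the brightest probe set, which leaves SDHD with its lower probe set alone. No member past 0.32 log2 units changed sign, while COX4I1, COXFA4, NDUFA13, NDUFB8, NDUFS8, SDHA, UQCRC1 and UQCRQ, all within 0.03 of 0, crossed it under quantile normalization, centring or lowess. SDHC fell short of 0.32 log2 units after centring, after lowess, with the pseudocount and with its brightest probe set (-0.30). At 1.5-fold 1 member was higher and 0 lower, and at 2-fold 0 were higher and 0 lower. Centring on the median made 41 members higher and 41 lower, in place of 36 and 46. No paired analysis was possible because there was 1 array in each group. Without replicates, no value shows how far 2 cultures of the same line would differ, and low intensities understate differences.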

Other observations

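The 3 nearest measured genes on each side in RefSeq order were read for the 8 members past 0.32 log2 units, a choice made after the values were seen. NDUFA9, on chromosome 12, had RAD51AP1 (0.07), DYRK4 (0.65) and AKAP3 (0.61) on 1 side, and GALNT8 (-0.26), KCNA6 (-0.23) and KCNA1 (-0.16) on the other. NDUFS3, on chromosome 11, had CELF1 (-0.28), PTPMT1 (0.02) and KBTBD4 (0.21) on 1 side, and FAM180B (-0.08), C1QTNF4 (-0.08) and MTCH2 (0.48) on the other. COX7B, on chromosome X, had FGF16 (0.13), ATRX (0.35), MAGT1 (0.62), ATP7A (0.25), PGK1 (0.33) and TAF9B (-0.10) around it. COX7C had HAPLN1 (0.10), EDIL3 (0.75), NBPF22P (-0.30), LOC645261 (-1.47), LINC01949 (0.28) and CCNH (0.31). COX6C had KCNS2 (-0.06), OSR2 (0.37), VPS13B (0.007), RGS22 (0.02), FBXO43 (-0.05) and POLR2K (-0.21). SDHC had TOMM40L (-0.11), NR1I3 (-0.25), PCP4L1 (-0.15), CFAP126 (-0.06), FCGR2A (0.31) and HSPA6 (1.16). COX6A2 had ITGAM (-0.08), ITGAX (-0.22), ITGAD (-0.18), ZNF843 (-0.05), ARMC5 (-0.39) and TGFB1I1 (-0.73). ATP5MGL had POLDIP3 (-0.01), RNU12 (-0.14), CYB5R3 (-0.18), A4GALT (-0.17), ARFGAP3 (0.77) and PACSIN2 (-0.21). Neighbours of both signs stood around each member but COX6A2.

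The NDUFB4 probe sets gave the same difference of 0.09 and nearly the same levels, so they count as 1 measurement. The NDUFS4 probe sets differed by 0.09 and -0.06, the second at 5.87 in EBC1-R and 5.93 in EBC1.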
